A study of Mus musculus with 16 samples.

Results

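The chaperone genes of the heat shock and endoplasmic reticulum (ER) systems were followed in mouse liver over 2 genotypes and 2 diets. They were taken by symbol: every gene named on the array that begins with Hspa, Hspb, Hspd, Hspe, Hsph, Hsp90, Dnaj or Pdia, with Calr, Canx, Herpud1, Creld2 and Xbp1 added. Sdf2l1, which the rule also names, and Dnajb11 were not analysed here. Of 16593 named genes 73 met this rule, and 55 of them passed the filter on low values, among 9095 genes tested. A gene passed where 4 or more of the 16 arrays gave it a detection p (the chance of such a signal from negative control beads) under 0.05. Each gene was assigned a compartment here. The 55 were 14 of 17 ER genes, 28 of 43 cytosolic genes, 10 of 10 mitochondrial genes and 3 of 3 others. The cytosolic genes include those of the nucleus and of vesicles. The others are Dnajc14, Dnajc18 and the transcription factor gene Xbp1, which the ER counts leave out. Detection reached all 16 arrays for 44 of the 55. Hspa4l and Dnajc11, detected in 4 arrays, lay just inside the limit, and Dnaja1, Dnajc27 and Hspa13, detected in 3, lay just outside.

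Chaperones of the HSP70 family (Hspa genes) hold unfolded stretches of protein and let them go in a cycle driven by ATP. J-domain proteins (Dnaj genes) bring clients to HSP70 and start ATP hydrolysis, nucleotide exchange factors such as Hsph1 reset the cycle, and small heat shock proteins (Hspb genes) keep unfolded protein from aggregating without using ATP. In the ER, HSP70 and HSP90 homologues work beside protein disulfide isomerases (Pdia genes) and the lectin chaperones Calr and Canx. Hepatocytes, which secrete most plasma proteins, are rich in this ER machinery. The cytosolic heat shock genes are switched on through heat shock factor HSF1, and the ER genes through the unfolded protein response, whose sensors lead to the transcription factors XBP1, ATF6 and ATF4.

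All mice were male C57Bl/6Hsd of 10 months, killed after an overnight fast that the 4 groups share. Wild type mice on chow, SHP-/- mice on chow, wild type mice on a western diet and SHP-/- mice on a western diet made up 4 groups of 4. Diets had been given for 6 months from an age of 4 months, and 1 microgram of liver RNA from each mouse went on an Illumina BeadChip of its own. SHP, the product of Nr0b2, is a nuclear receptor that represses bile acid synthesis genes, and the SHP-/- mice are called knockout here. The labels give neither the make of the knockout allele nor litters, cages or slides. The p-values set differences between groups against the pooled spread within the groups of these 16 mice. Litter, cage and slide could not be separated from either. Levels below are log2 normalized intensities of 1 probe per gene, which rank mice for a gene but not genes against each other.

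The raw signal averaged between 262 and 384 per array, and 43.6% to 51.1% of probes were detected, with the highest shares, 48.8% to 51.1%, in wild type mice on western diet. The Nr0b2 probe was detected in 0 of 16 arrays (lowest detection p 0.227), so it checks neither genotype. Of 9 hepatocyte markers on the array 8 were detected, with a mean level between 12.5 and 12.8 in every array. With western diet 3 of the 8 fell in wild type (Cps1 by 0.66 ± 0.15, Hnf4a by 0.47 ± 0.11 and Serpina1a by 0.47 ± 0.12) and 2 in knockout (Hnf4a and Cyp3a11), and with median scaling 2 and 0. On western diet Serpina1a and Alb were called higher in knockout than in wild type. The Alb probe was dim in every group, with means from 4.39 to 5.17, where those of Ttr lay between 14.97 and 15.13. Its difference is therefore not read as one of albumin RNA, and the marker mean includes this probe. Tat was not detected, and the Alb probe was at background in all 4 arrays of wild type on chow. Macrophage and stellate cell markers rose with western diet in wild type, and their levels stand beside the results below. The part of any of these markers in the chaperone results was not tested.

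Promoter windows of 300 bases, from 250 before to 50 after the annotated start, were found in RefSeq (GRCm38.p6) for 61 of the 73 genes and for 46 of the 55 detected. They were searched on both strands for the ER stress response element ERSE (CCAAT, then any 9 bases, then CCACG), for its short form ERSE-II (ATTGG, any 1 base, then CCACG) and for a heat shock element of 3 units (GAA, TTC and GAA, or TTC, GAA and TTC, each spaced by any 2 bases). ERSE stood in 6 of 14 detected ER genes (Calr, Creld2, Dnajc3, Hsp90b1, Hspa5 and Pdia6), 42.9%, against 0.119% of all 32851 windows and 0 of 23 cytosolic genes. ERSE-II stood in 1 ER gene, Herpud1, against 0.0365% of all windows, and no member's window held both. The heat shock element stood in 2 of 23 cytosolic genes (Dnajb6 and Hsph1), in 2 of 7 mitochondrial genes and in 0 of 14 ER genes, against 0.603% of all windows. The mitochondrial pair, Hspd1 and Hspe1, lie head to head and share 285 of the 300 bases, so they count as 1 sequence. Shown are the windows of 2 ER genes and 2 heat shock genes to which the values below return, with the matched element in capitals. Herpud1 lies at chr8:94386179-94386478 (plus strand), Creld2 at chr15:88819396-88819695 (plus), Hsph1 at chr5:149636287-149636586 (minus) and Hspe1 at chr1:55087898-55088197 (plus). The Creld2 element reads on the opposite strand, the Hsph1 element lies after the annotated start, and the capitals of Hspe1 cover 2 overlapping matches. Members were counted by gene, with a match in any window of the gene, and the background was counted by window. A match is a match of letters, not a measured binding site.
Herpud1: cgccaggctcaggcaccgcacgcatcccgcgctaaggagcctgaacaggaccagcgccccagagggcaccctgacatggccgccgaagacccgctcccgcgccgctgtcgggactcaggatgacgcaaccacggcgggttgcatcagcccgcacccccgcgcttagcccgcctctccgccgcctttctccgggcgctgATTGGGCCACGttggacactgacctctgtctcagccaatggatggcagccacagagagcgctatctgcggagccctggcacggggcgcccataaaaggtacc
Creld2: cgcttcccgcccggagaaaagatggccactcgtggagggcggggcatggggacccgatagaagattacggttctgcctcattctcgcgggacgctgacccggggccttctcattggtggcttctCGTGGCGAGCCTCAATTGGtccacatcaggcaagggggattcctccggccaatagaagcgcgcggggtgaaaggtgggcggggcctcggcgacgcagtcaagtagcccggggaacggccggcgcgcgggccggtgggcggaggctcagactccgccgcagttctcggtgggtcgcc
Hsph1: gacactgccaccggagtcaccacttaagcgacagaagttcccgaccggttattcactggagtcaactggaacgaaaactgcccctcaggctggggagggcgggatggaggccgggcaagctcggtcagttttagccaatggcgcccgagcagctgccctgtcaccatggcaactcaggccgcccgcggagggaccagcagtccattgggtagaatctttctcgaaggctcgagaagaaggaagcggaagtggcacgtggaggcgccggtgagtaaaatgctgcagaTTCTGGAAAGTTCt
Hspe1: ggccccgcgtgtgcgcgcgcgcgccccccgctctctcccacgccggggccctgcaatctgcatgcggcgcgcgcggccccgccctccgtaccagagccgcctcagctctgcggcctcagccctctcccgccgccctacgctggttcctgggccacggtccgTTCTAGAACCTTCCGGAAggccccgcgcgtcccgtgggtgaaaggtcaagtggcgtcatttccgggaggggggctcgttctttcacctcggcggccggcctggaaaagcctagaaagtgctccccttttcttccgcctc

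Western diet in wild type mice moved more of these genes than any of the other 3 pairwise comparisons, and most of those that moved fell. Of the 55, 4 rose and 11 fell (limma, adjusted p below 0.05), where 29.6% of all genes tested were called, 15.5% higher and 14.1% lower. In knockout mice western diet raised 1 and lowered 4, where 7.88% of all genes were called, 4.52% higher and 3.36% lower. Knockout against wild type raised 5 and lowered 3 on western diet, where 19.8% of all genes were called, 8.82% higher and 11% lower. On chow it raised 1 and lowered 1, where 0.836% were called, 0.44% higher and 0.396% lower. The diet by genotype interaction, the diet difference in knockout minus that in wild type, called 1, below 0, where 7.05% of all genes were called, 2.29% above 0 and 4.76% below. The share of members called was thus close to the share of all genes in the diet comparisons. Quantile normalization sets the arrays to 1 distribution. With median scaling in its place the median of all genes in the wild type diet comparison moved from -0.03 to 0.14. There 7 members rose and 6 fell, where 2082 of 9095 genes rose and 290 fell. With median scaling 1 was higher and 5 lower in knockout on western diet, where 208 of all genes were higher and 1691 lower. On chow 0 were higher and 1 lower in knockout (21 and 39 of all genes). With diet in knockout 1 rose and 1 fell (297 and 50 of all genes).

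By compartment, the ER genes had the lowest median difference with diet in wild type. Of 14 ER genes 5 fell and 1 rose, where 14.1% of all genes fell and 15.5% rose. With median scaling 3 fell and 2 rose, where 290 of 9095 genes fell and 2082 rose. The ER median log2 difference was -0.26. Set against the median of all genes it was -0.23, and -0.28 with median scaling. Of 28 cytosolic genes 5 fell and 2 rose (5 rose and 3 fell with median scaling), with a median of -0.08 that turned to 0.13 with median scaling. Of 10 mitochondrial genes 1 rose and 1 fell, and neither call was kept with median scaling. Dnajc14 and Dnajc18, which were not counted with the ER genes, gave 0.10 ± 0.15 and 0.02 ± 0.15. The mean level over the 14 ER genes lay between 8.88 and 9.24 in wild type on chow and between 8.74 and 8.81 on western diet. In knockout it lay between 8.73 and 8.99 on chow and between 8.61 and 9.0 on western diet, so wild type on chow stood clear of wild type on western diet and the knockout groups overlapped each other. These means describe a list that was put together with earlier results known and carry no test.

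**Figure D1:**
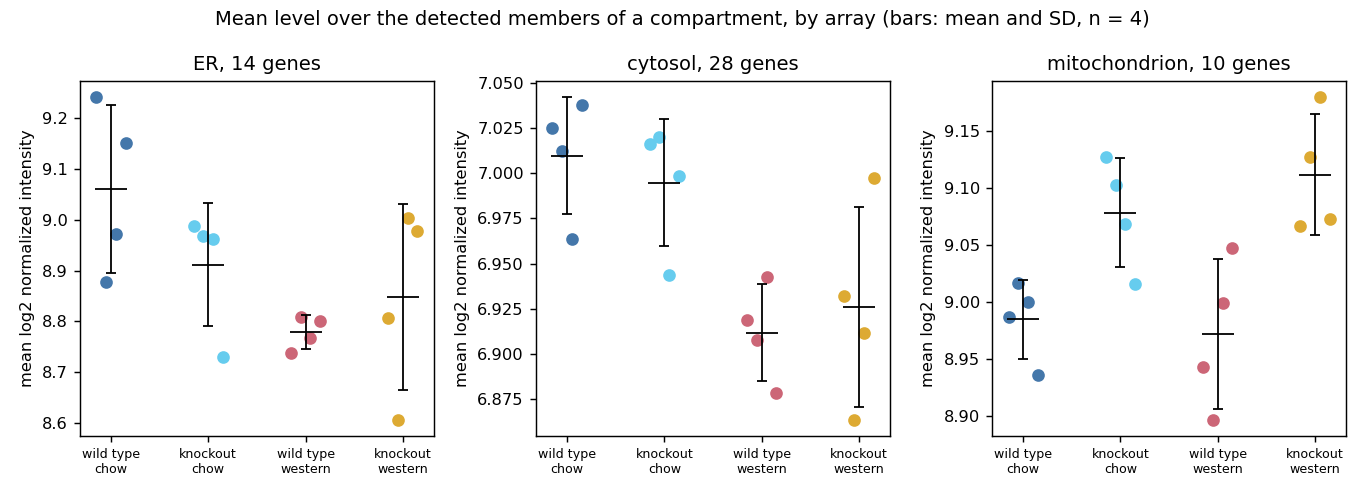
Mean log2 normalized intensity over the detected ER, cytosolic and mitochondrial genes in each array (points), by genotype and diet, with the group mean and SD (n = 4). The 4 ER means of wild type on western diet lie between 8.74 and 8.81, below all 4 of wild type on chow (8.88 to 9.24).

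**Figure D2:**
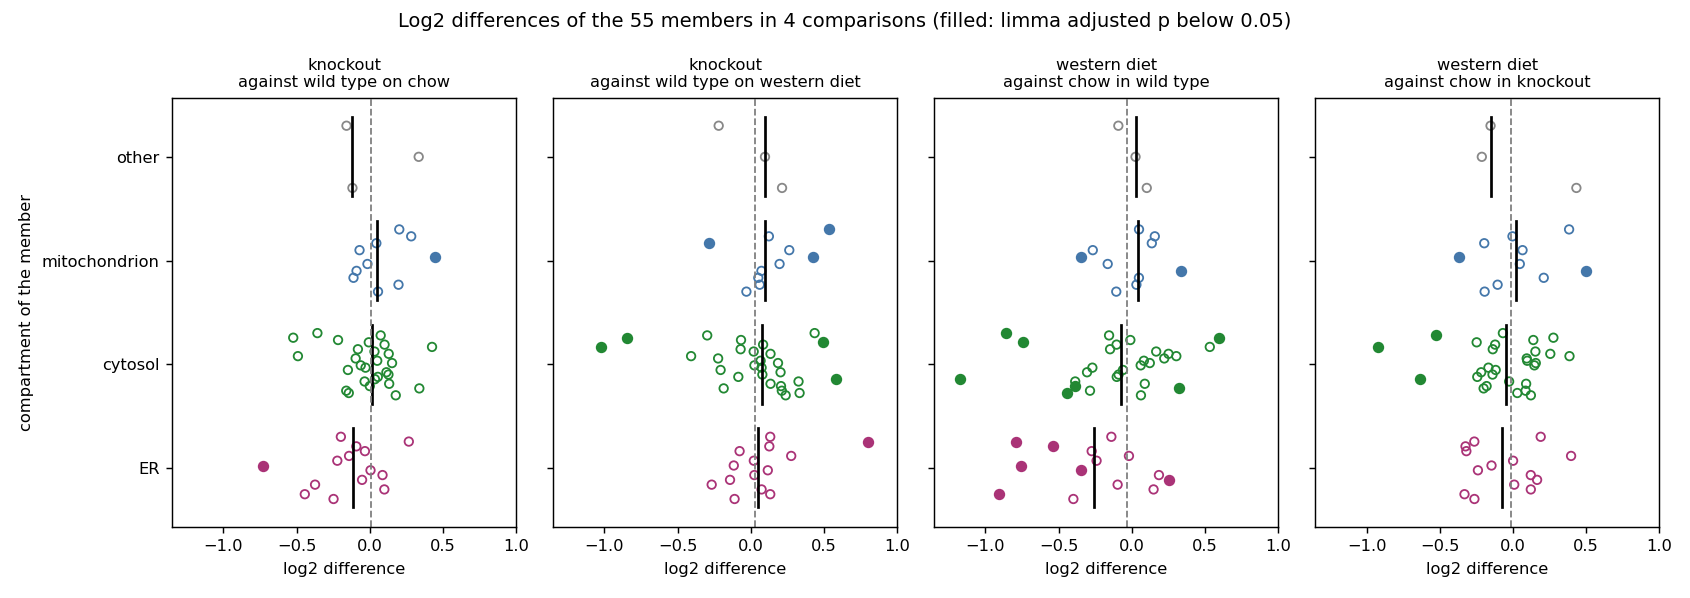
Log2 difference of each of the 55 genes (points) by compartment, in 4 pairwise comparisons. Filled points passed at an adjusted p below 0.05, black bars mark the median of a compartment, and the dashed line marks the median of all genes tested. The ER median of the wild type diet comparison lies at -0.26, and that of cytosolic genes at -0.08, which turned to 0.13 with median scaling.

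Herpud1, a membrane protein of the ER that takes part in the removal of misfolded proteins, was high in wild type on chow and lower in the other 3 groups. Its levels were 13.33, 13.63, 13.44 and 13.68 in wild type on chow and 12.67, 12.52, 13.11 and 12.75 in wild type on western diet. In knockout mice they were 12.85, 13.001, 13.14 and 12.17 on chow and 12.70, 12.66, 12.58 and 12.64 on western diet. The 4 wild type mice on chow lay above every other mouse. Herpud1 fell by 0.76 ± 0.16 (SE) on the log2 scale with western diet in wild type, a 1.69-fold lower level (adjusted p = 0.00177), and its second probe gave -0.74 ± 0.16. It was 1.65-fold lower in knockout than in wild type on chow (log2 difference -0.73 ± 0.16, adjusted p = 0.0384), and both of these comparisons rest on the same 4 arrays of wild type on chow. The chow call was lost in 8 of 16 fits that left out 1 array, with the highest adjusted p, 0.132, without wild type chow mouse 2, and also with the authors' processed values, with no detection filter, with only the 8 arrays compared and with the replicate block. Within knockout the diet difference was -0.15 ± 0.16 (adjusted p = 0.64), and the interaction of 0.61 ± 0.23 did not pass (adjusted p = 0.125).

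Creld2, an ER stress-inducible disulfide isomerase-like protein, showed the largest fall among the ER genes with western diet in wild type. Levels were 9.70, 8.64, 9.31 and 9.66 in wild type on chow and 8.35, 8.41, 8.42 and 8.50 on western diet. The 4 western diet mice lay within a narrow band below every chow mouse, with chow mouse 2 closest to them. The fall was 1.88-fold (log2 difference -0.91 ± 0.19, adjusted p = 0.00151), and a second probe gave -1.04 ± 0.21. Knockout levels were 8.89, 9.01, 9.07 and 8.56 on chow and 8.53, 8.08, 8.81 and 8.79 on western diet, which overlap (-0.33 ± 0.19, adjusted p = 0.312). The interaction did not pass (0.58 ± 0.27, adjusted p = 0.226), except without wild type chow mouse 2, where it was 0.80 with an adjusted p of 0.0361.

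Of the protein disulfide isomerases, which form and rearrange disulfide bonds in secreted proteins, Pdia4 and Pdia5 fell with western diet in wild type. Pdia5 levels were 9.32, 8.98, 8.54 and 9.36 on chow and 8.09, 8.87, 8.19 and 7.88 on western diet in wild type, with mouse 2 on western diet above mouse 3 on chow. In knockout they were 9.56, 9.11, 9.23 and 9.36 on chow and 9.06, 8.69, 9.12 and 9.35 on western diet. Western diet thus left 3 of 4 wild type mice below every knockout mouse. Pdia5 fell 1.73-fold with diet in wild type (-0.79 ± 0.20, adjusted p = 0.00515) and was 1.74-fold higher in knockout than in wild type on western diet (0.80 ± 0.20, adjusted p = 0.00735), 2 comparisons that share the wild type western arrays. Its 2 other detected probes gave -0.89 ± 0.15 and -0.51 ± 0.20 for diet in wild type. The interaction was 0.53 ± 0.28 (adjusted p = 0.288).

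Pdia4 levels in wild type were 10.35, 9.62, 9.88 and 9.85 on chow and 9.51, 9.32, 9.24 and 9.46 on western diet. The 2 sets did not overlap. The fall was 1.46-fold (-0.54 ± 0.14, adjusted p = 0.0073), and with median scaling it did not pass (-0.35, adjusted p = 0.0724). In knockout the difference was -0.32 ± 0.14 (adjusted p = 0.169). Dnajc3, a J-domain partner of the ER HSP70 that also restrains eIF2alpha kinases, fell by 0.35 ± 0.11 in wild type (adjusted p = 0.0213), from 8.92, 8.76, 8.84 and 9.05 to 8.47, 8.49, 8.60 and 8.62, with no overlap. Its call was lost with median scaling (-0.12, adjusted p = 0.579) and without any of 3 single arrays. Dnajc10, a J-domain disulfide reductase that helps degrade misfolded ER proteins, was the ER gene that rose in wild type (0.25 ± 0.09, adjusted p = 0.0445). Its call was lost in 10 of 16 fits that left out 1 array, and with no detection filter, only the arrays compared and the replicate block.

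The central ER chaperones did not pass in any comparison of all 16 arrays. Hspa5, the ER HSP70 known as BiP, differed by -0.02 ± 0.22 with diet in wild type and 0.40 ± 0.22 in knockout (adjusted p = 0.957 and 0.272). Its probe was dim, with group means from 5.89 to 6.28. Hsp90b1, the ER HSP90, gave -0.24 ± 0.19 and 0.00 ± 0.19. Calr, a calcium-binding lectin chaperone, gave -0.40 ± 0.20 in wild type (adjusted p = 0.141), with levels of 8.78, 8.20, 8.71 and 8.04 on chow and 7.95, 7.98, 8.17 and 8.03 on western diet, where 3 chow mice lay above all western mice and chow mouse 4 lay among them. Pdia3, which works with the lectin chaperones, gave -0.27 ± 0.15 in wild type and -0.32 ± 0.15 in knockout, Pdia6 gave -0.14 ± 0.21 and 0.19 ± 0.21, and Dnajb9, a partner of Hspa5 that aids degradation, gave -0.10 ± 0.16 and 0.01 ± 0.16. Xbp1, which encodes a transcription factor of the unfolded protein response, gave -0.09 ± 0.14 and -0.15 ± 0.14. Its probe does not tell the spliced from the unspliced form here. Dnajc16 and Dnajb12, membrane J-domain proteins of the ER, gave 0.18 ± 0.11 and 0.15 ± 0.14 in wild type. Dnajc16 passed there with median scaling, and a second Dnajc16 probe gave 0.58 ± 0.17 (adjusted p = 0.0149 in the fit of all probes).

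Of the 7 ER genes with an ERSE or ERSE-II match, 3 fell with western diet in wild type (Creld2, Dnajc3 and Herpud1) and 4 did not pass (Calr, Hsp90b1, Hspa5 and Pdia6). Of the 7 without one, 2 fell (Pdia4 and Pdia5) and 1 rose (Dnajc10). ERSE, printed above for Creld2, was thus found in genes that fell and in genes that did not pass.

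Other genes of ER folding and degradation, 19 detected of 23 on the array, gave 1 higher and 3 lower with diet in wild type, where 29.6% of all genes were called. Hyou1, the ER HSP110, fell by 0.78 ± 0.26 (adjusted p = 0.0328), Uggt1, which senses glycoprotein folding, by 0.32 ± 0.11 (adjusted p = 0.0339), and Ssr2, of the translocon-associated complex, by 0.34 ± 0.12 (adjusted p = 0.0342). Erp29 rose by 0.24 ± 0.09 (adjusted p = 0.0412) and P4hb, the founding disulfide isomerase, gave 0.27 ± 0.10 (adjusted p = 0.0523). With median scaling none of the 3 falls passed and Erp29 and Fkbp11 rose. In knockout Fkbp2 rose and Vcp fell, and knockout was higher than wild type on western diet for Derl2, a channel component of ER degradation (0.47 ± 0.11, adjusted p = 0.00417), whose interaction also passed (0.52 ± 0.15, adjusted p = 0.0439). The calls of Fkbp2, Vcp and Derl2 were not made with median scaling.

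Regulators of the unfolded protein response were followed in the same livers. Of 12 detected, 5 rose and 1 fell with western diet in wild type, where 15.5% of all genes rose and 14.1% fell. With median scaling 6 rose and 0 fell, where 2082 of all 9095 genes rose and 290 fell. Atf3, a stress-induced transcription factor, ranged from 4.37 to 4.88 in wild type on chow, where it was detected in 2 of 4 arrays, and from 6.26 to 7.05 on western diet, with a log2 difference of 2.0 ± 0.20 (adjusted p = 8.5e-07). Chac1, a glutathione-degrading enzyme induced through ATF4, rose by 1.46 ± 0.23 (adjusted p = 0.00012), Eif2ak3, the ER kinase PERK, by 0.71 ± 0.13 (adjusted p = 0.000447) and Ddit3, the transcription factor CHOP, by 0.80 ± 0.20 (adjusted p = 0.00435). Creb3l3, a liver transcription factor of the ER membrane, fell by 0.48 ± 0.11 (adjusted p = 0.0032), a call that was not made with median scaling, and Atf4 gave -0.06 ± 0.14 (adjusted p = 0.798).

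In knockout, where Chac1 rose by 1.54 ± 0.23 (adjusted p = 0.000925), it was the only one of the 12 regulators to pass with diet. Atf3 ranged from 4.29 to 5.23 on chow and from 4.42 to 5.01 on western diet in knockout, detected in 1 of 4 arrays of each. On western diet knockout was lower than wild type for Atf3 (-1.98 ± 0.20, adjusted p = 1.61e-06), Chac1, Ddit3 and Eif2ak3 and higher for Creb3l3. There 11% of all genes were lower and 8.82% higher. With median scaling 6 regulators were lower and 0 higher, where 1691 of 9095 genes were lower and 208 higher. The Atf3 interaction was -2.05 ± 0.29 (adjusted p = 0.000281). On chow Chac1 was lower in knockout (-1.14 ± 0.23, adjusted p = 0.0189), a call not made with the authors' processed values. Macrophages also express Atf3 and Ddit3, and all 12 detected macrophage markers rose with western diet in wild type. Their mean level ranged from 6.73 to 7.29 in wild type on chow, 6.83 to 7.11 in knockout on chow, 8.82 to 9.90 in wild type on western diet and 7.32 to 7.62 in knockout on western diet, and Mmp12 was at background in knockout on chow. The 10 stellate cell and fibroblast markers had means of 5.68 to 5.90, 5.72 to 5.89, 6.67 to 7.25 and 5.83 to 6.19 in the same order. Of these, 7 rose in wild type. Col1a2, Col3a1, Pdgfrb and Timp1 were at background in wild type on chow, and Col1a1, Col1a2 and Timp1 in knockout on chow. Their part in the results for the regulators was not tested. In whole liver RNA, fewer cells of a type and less RNA per cell cannot be told apart.

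**Figure D3:**
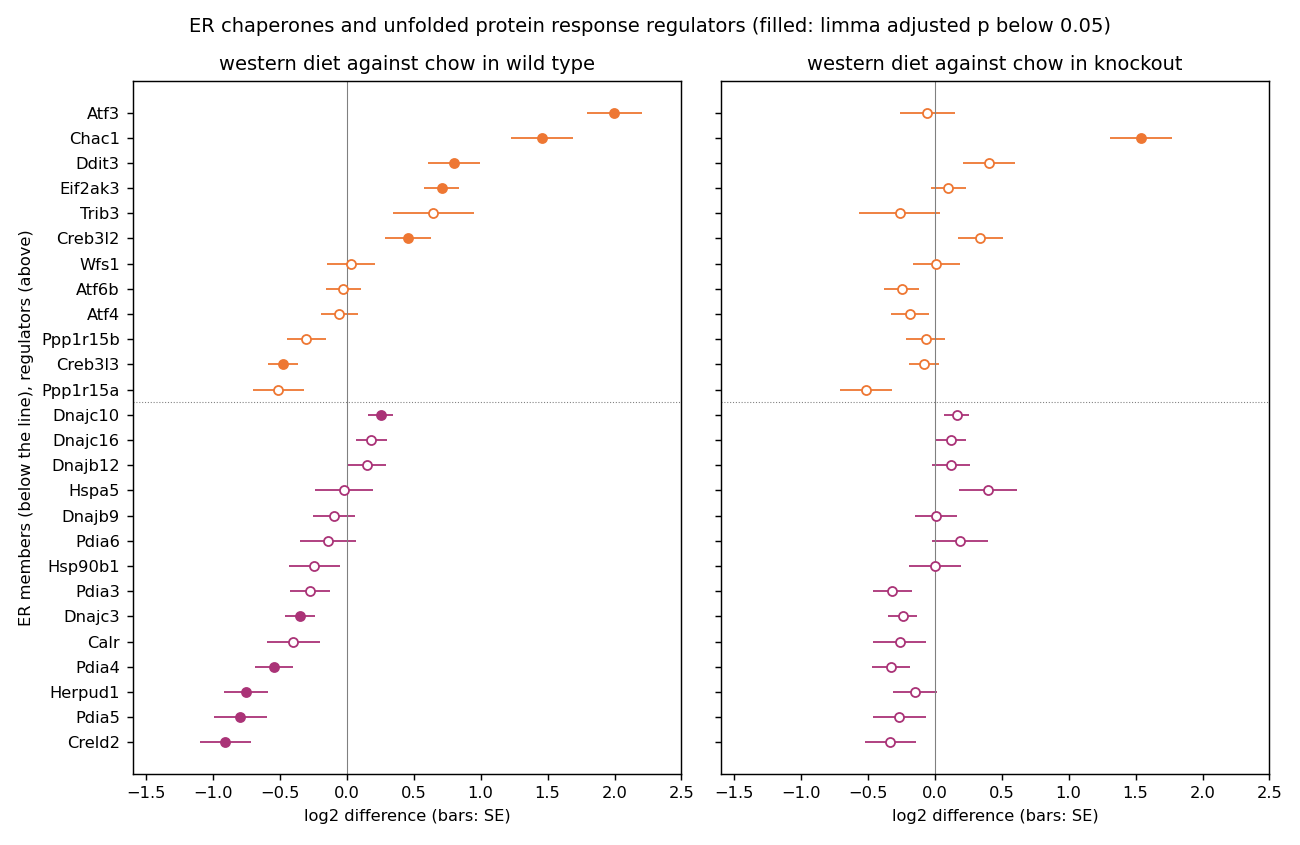
Log2 difference with SE for western diet against chow in wild type (left) and knockout (right), for 12 regulators of the unfolded protein response (above the dotted line) and the 14 ER chaperone genes (below). Filled points passed at an adjusted p below 0.05. In wild type 5 regulators lie above 0 and passed while 5 ER genes lie below 0 and passed, which became 6 and 3 with median scaling. With that scaling 2082 of all 9095 genes rose and 290 fell.

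Among the cytosolic genes, Hspb1 was the one gene whose diet difference passed the test of a change with genotype. Hspb1 encodes a small heat shock protein that binds unfolded clients and actin filaments. Levels were 8.37, 8.02, 8.56 and 8.43 in wild type on chow and 9.12, 8.84, 9.14 and 8.42 on western diet. In knockout they were 9.13, 9.20, 8.15 and 8.60 on chow and 7.98, 7.95, 7.91 and 7.56 on western diet, where all 4 mice lay below every mouse of the other 3 groups. In knockout Hspb1 fell 1.89-fold with diet (-0.92 ± 0.20, adjusted p = 0.00991), while in wild type the difference was 0.53 ± 0.20 (adjusted p = 0.0526), which passed in 10 of the alternative fits, among them median scaling. On western diet it was 2.04-fold lower in knockout (-1.03 ± 0.20, adjusted p = 0.00114), and on chow the difference was 0.42 ± 0.20 (adjusted p = 0.458). The interaction was -1.45 ± 0.28 (adjusted p = 0.00433), the one interaction to pass among the 55, and it passed in all 10 other settings and all 16 fits without 1 array. With diet in knockout 4 of 12 macrophage, 1 of 10 stellate cell and fibroblast and 0 of 8 endothelial markers rose. On western diet 12, 6 and 2 of them, in the same order, were lower in knockout than in wild type. The part of these markers in the Hspb1 result was not tested.

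Hspb6, a small heat shock protein best known from muscle, fell with western diet in wild type. Levels were 10.13, 10.19, 10.22 and 10.20 in wild type on chow and 9.66, 9.13, 9.29 and 9.68 on western diet. In knockout they were 10.36, 10.04, 10.20 and 10.12 on chow and 10.04, 10.12, 9.65 and 9.92 on western diet. Every wild type chow mouse lay above every wild type western mouse, while the knockout groups overlapped. The fall in wild type was 1.68-fold (-0.74 ± 0.12, adjusted p = 0.000144), knockout was 1.40-fold higher on western diet (0.49 ± 0.12, adjusted p = 0.00719), and the interaction did not pass (0.50 ± 0.17, adjusted p = 0.0878). The knockout difference was lost with median scaling (0.32, adjusted p = 0.195). Of 7 muscle markers on the array 5 were detected in too few arrays to be tested, and neither of the other 2 passed except Des with median scaling, which rose with diet in wild type and was lower in knockout on western diet. Hspb8, which feeds clients to autophagy, gave -0.01 ± 0.11 in wild type and 0.14 ± 0.11 in knockout.

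**Figure D4:**
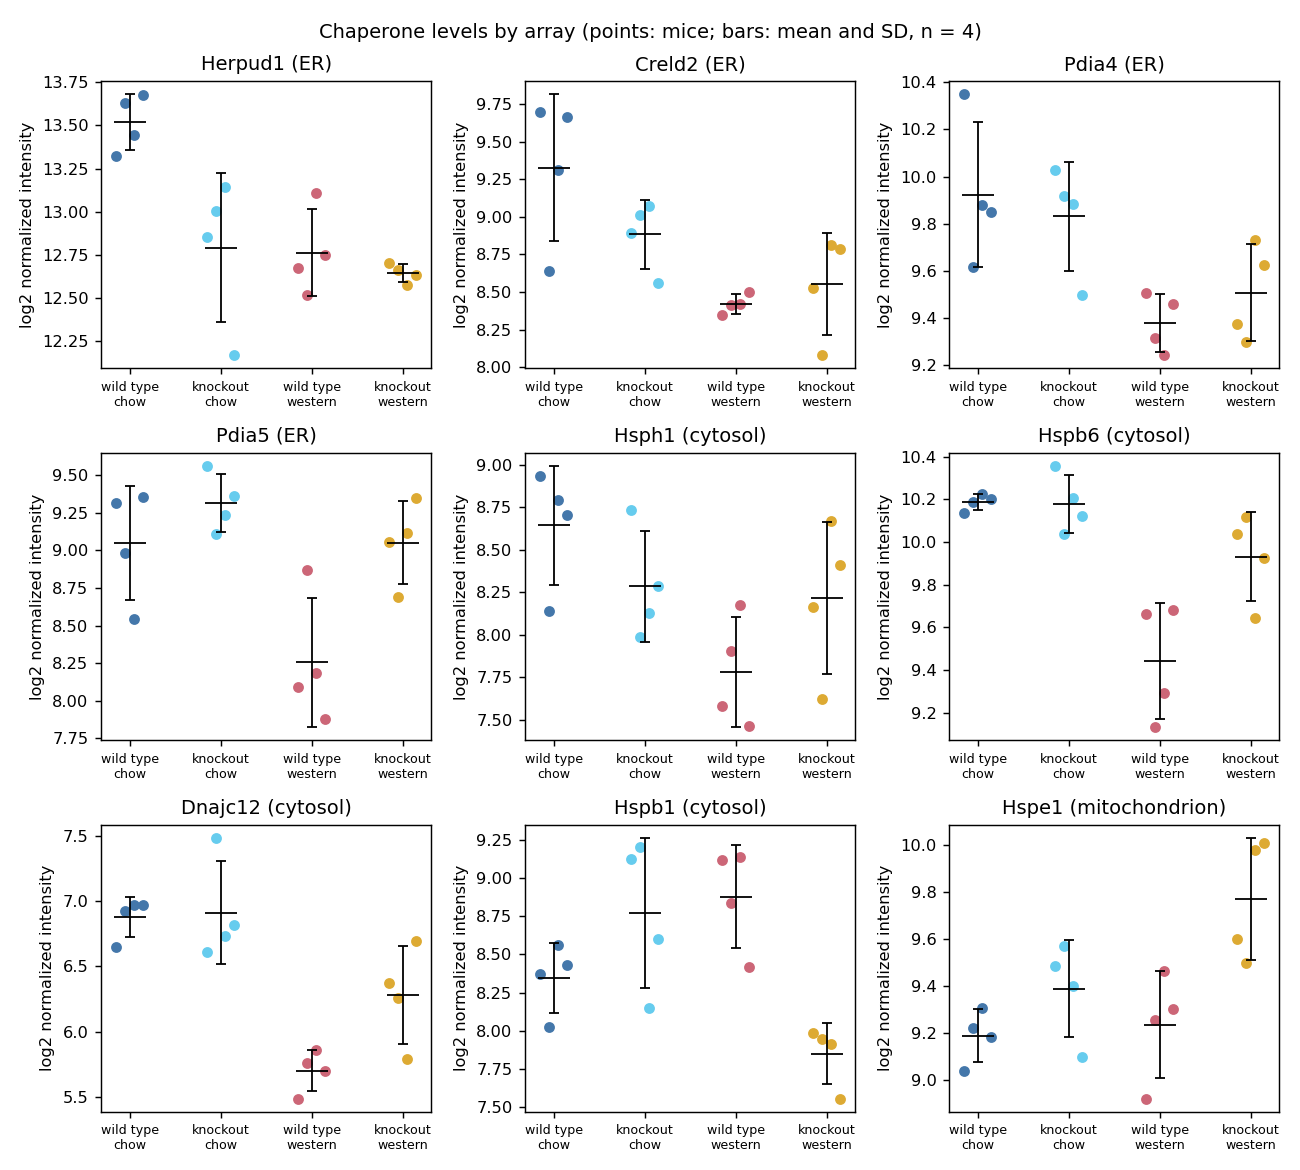
Log2 normalized intensity of 9 genes in each mouse (points) by genotype and diet, with group mean and SD (n = 4). Herpud1 in wild type on chow lies at 13.33 and above, over every other mouse, and Hspb1 in knockout on western diet lies at 7.98 and below, under every other mouse.

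Hsph1, the cytosolic HSP110 that exchanges nucleotide on HSP70, fell with western diet in wild type. Levels were 8.93, 8.14, 8.79 and 8.71 on chow and 7.58, 7.90, 8.18 and 7.47 on western diet, where mouse 3 on western diet lay just above mouse 2 on chow. In knockout they were 8.74, 7.99, 8.13 and 8.29 on chow and 8.16, 7.62, 8.67 and 8.41 on western diet, and the groups overlapped. The fall was 1.82-fold (-0.86 ± 0.22, adjusted p = 0.00556) and held in every alternative fit, with an adjusted p of at most 0.0444. The interaction was 0.79 ± 0.31 (adjusted p = 0.133), and it passed without knockout western mouse 2 (0.99, adjusted p = 0.0439). Hsph1 also had the largest spread within groups, a pooled SD of 0.36 against a median of 0.21 over the 55. Its promoter held the heat shock element printed above, and so did that of Dnajb6, which gave -0.39 ± 0.16 in wild type (adjusted p = 0.0735).

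Of the major cytosolic HSP70 and HSP90 genes with a detected probe, none passed. Hspa8, the constitutive cytosolic HSP70, gave -0.15 ± 0.13 with diet in wild type and -0.14 ± 0.13 in knockout. Hsp90aa1, an inducible HSP90, gave 0.12 ± 0.17 and 0.16 ± 0.17, and Dnajb1, the J-domain partner most closely tied to heat shock, gave -0.29 ± 0.14 and 0.09 ± 0.14. None of these 3 passed in any comparison. The Hsp90aa1 probe was dim, with group means from 5.05 to 5.35, where Dnajb13 at background in wild type on chow gave 4.63. Hspa1a, the stress-induced HSP70, was detected in 1 array and was not tested, and Hspa1b and Hsp90ab1 were not analysed here. Hspa2 and Hspa4, further HSP70 relatives, gave 0.30 ± 0.21 and 0.25 ± 0.12 in wild type, which passed with median scaling (adjusted p below 0.05).

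Dnajc12, a J-domain protein that helps fold aromatic amino acid hydroxylases, which in liver means phenylalanine hydroxylase, had the largest fall of the 55. Levels were 6.65, 6.93, 6.97 and 6.97 in wild type on chow and 5.49, 5.76, 5.86 and 5.70 on western diet. In knockout they were 6.61, 7.49, 6.74 and 6.82 on chow and 6.38, 6.26, 5.79 and 6.69 on western diet. Wild type mice separated by diet without overlap and knockout mice did not. The fall was 2.26-fold in wild type (-1.18 ± 0.19, adjusted p = 0.000117) and 1.55-fold in knockout (-0.63 ± 0.19, adjusted p = 0.045). The knockout call was lost in 11 of 16 fits without 1 array. It was also lost with median scaling, the authors' processed values, no detection filter, only the arrays compared and array weights. On western diet knockout was 1.49-fold higher (0.58 ± 0.19, adjusted p = 0.0348, lost in 6 of 16). That call was also lost without background correction, by normexp without negative controls, with median scaling and with no detection filter. The interaction was 0.55 ± 0.27 (adjusted p = 0.241).

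Other J-domain genes of the cytosol moved less. Dnajb2, which sends clients to the proteasome, fell by 0.39 ± 0.12 with diet in wild type (adjusted p = 0.0177) from between 8.53 and 8.85 to between 8.12 and 8.43, and Dnaja4 by 0.45 ± 0.16 (adjusted p = 0.0375). Both calls were lost with median scaling, where the differences were -0.15 and -0.20. The Dnajb2 call was also lost in 2 of 16 fits without 1 array. The Dnaja4 call was lost in 5 of 16 (adjusted p up to 0.140), and with no detection filter, only the arrays compared and the replicate block. Dnajb13, a gene of sperm and cilia, was at background in all 4 arrays of wild type on chow. It was at least 1.14-fold higher on western diet (adjusted p = 0.0498, normalized means 4.63 and 4.96). That call was lost in 12 of 16 fits without 1 array and in 8 of 11 other settings. A second probe of Dnajb4 gave -0.51 ± 0.18 in wild type (adjusted p = 0.0395 in the fit of all probes), where the probe used gave 0.09 ± 0.17.

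The HSP-binding genes Hspbap1 and Hspbp1 were also called. Hspbap1, whose product binds HSPB1, had levels of 5.75, 5.40, 5.15 and 4.92 in wild type on chow, 6.03, 5.45, 6.13 and 6.00 in wild type on western diet and 4.94, 5.19, 4.96 and 5.13 in knockout on western diet. On western diet all wild type mice lay above all knockout mice. It was 1.79-fold lower in knockout there (-0.84 ± 0.21, adjusted p = 0.0081) and rose with diet in wild type (0.60 ± 0.21, adjusted p = 0.041). The diet call was lost in 6 of 16 fits without 1 array and with no detection filter. Hspbp1, a nucleotide exchange factor of HSP70, fell with diet in knockout (-0.53 ± 0.13, adjusted p = 0.0209), from between 7.20 and 7.41 to between 6.57 and 6.96. Its call was lost with median scaling (adjusted p = 0.112) and in 2 of 16 fits without 1 array.

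Heat shock factors and cytosolic co-chaperones, 17 detected of 18 on the array, gave 0 higher and 6 lower with western diet in wild type, where 15.5% of all genes were higher and 14.1% lower. Fkbp5, an HSP90 co-chaperone induced by glucocorticoids, fell by 1.93 ± 0.39 (adjusted p = 0.000948), Stip1, which links HSP70 to HSP90, by 0.57 ± 0.11 (adjusted p = 0.000678) and Ppid, an HSP90-bound cyclophilin, by 0.45 ± 0.11 (adjusted p = 0.00344). Ahsa1, Ahsa2 and Bag4 made up the 6, and only Fkbp5 of them passed with median scaling. The interaction passed for Ahsa2 (0.80 ± 0.23, adjusted p = 0.0396), though not with median scaling. The CCT chaperonin, which folds actin and tubulin, and its partner prefoldin, 12 detected, gave 1 higher and 5 lower in wild type against the same shares of all genes, with Tcp1 falling by 0.61 ± 0.16 (adjusted p = 0.00609), Cct6a by 0.30 ± 0.08 (adjusted p = 0.00692) and Cct3 by 0.33 ± 0.10 (adjusted p = 0.0221). With median scaling 2 rose and 0 fell, where 2082 of 9095 genes rose and 290 fell. In knockout Tcp1 and Cct3 fell, and neither did with median scaling.

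In mitochondria, Dnajc30, a J-domain protein tied to the respiratory chain, was called in all 4 pairwise comparisons. Levels were 9.65, 9.61, 9.61 and 9.79 in wild type on chow and 10.11, 10.03, 10.23 and 10.09 in knockout on chow. On western diet they were 9.42, 9.13, 9.27 and 9.46 in wild type and 9.80, 9.96, 9.51 and 9.70 in knockout. Knockout lay above wild type on both diets, and western diet below chow in both genotypes, each without overlap. Knockout was 1.36-fold higher on chow (0.45 ± 0.10, adjusted p = 0.0323) and 1.34-fold higher on western diet (0.42 ± 0.10, adjusted p = 0.00464), and the diet differences were -0.35 ± 0.10 in wild type (adjusted p = 0.0122) and -0.37 ± 0.10 in knockout (adjusted p = 0.0264). The interaction was -0.03 ± 0.14 (adjusted p = 0.944). With median scaling none of the 4 passed (adjusted p from 0.308 to 0.603), and the directions were kept. The chow call was also lost in 6 of 16 fits without 1 array (adjusted p up to 0.116) and the diet call in knockout in 4 of 16.

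Hspe1, the lid of the mitochondrial HSP60 chamber, was higher in knockout on western diet. Levels there were 9.60, 9.50, 9.98 and 10.01, against 8.92, 9.25, 9.46 and 9.30 in wild type, with no overlap. On chow they were 9.49, 9.57, 9.40 and 9.10 in knockout and 9.04, 9.22, 9.31 and 9.18 in wild type, which overlap. The difference on western diet was 1.45-fold (0.54 ± 0.13, adjusted p = 0.00776), and with median scaling it did not pass (0.37, adjusted p = 0.131). Hspd1, the HSP60 of the same chamber, which shares its promoter with Hspe1, gave 0.12 ± 0.09 on western diet (adjusted p = 0.384) and 0.28 ± 0.09 on chow (adjusted p = 0.184), and a second, dimmer probe gave -0.27 ± 0.24 and -0.06 ± 0.24. On chow the Hspd1 levels of 11.81, 11.78, 11.53 and 11.74 in knockout lay above the 11.49, 11.41, 11.46 and 11.36 of wild type without overlap, though the test did not pass.

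Hspa9, the mitochondrial HSP70 that pulls proteins through the inner membrane, was lower in knockout on western diet (-0.29 ± 0.09, adjusted p = 0.0278), and a second probe gave -0.36 ± 0.09. With diet in knockout that second probe gave -0.32 ± 0.09 (adjusted p = 0.0414 in the fit of all probes), against -0.20 ± 0.09 for the probe used (adjusted p = 0.183). Its levels were 12.25, 12.18, 12.52 and 12.34 in knockout and 12.47, 12.74, 12.55 and 12.68 in wild type, where knockout mouse 3 reached into the wild type range. The call was lost in 5 of 16 fits without 1 array, and with median scaling, no detection filter and only the arrays compared. Dnajc19, a J-domain protein of the same import motor, rose with western diet in knockout 1.41-fold (0.50 ± 0.11, adjusted p = 0.0106), from 10.85, 10.73, 10.89 and 10.54 to 11.05, 11.30, 11.36 and 11.29 without overlap. In wild type it rose by 0.34 ± 0.11 (adjusted p = 0.0273). That call was lost with median scaling, with the mean of a gene's probes and in 3 of 16 fits without 1 array. A second probe gave -0.10 ± 0.13 in wild type, so the 2 probes disagree there. In knockout the second probe gave 0.36 ± 0.13. The other 5 mitochondrial genes (Dnaja3, Dnajc4, Dnajc11, Dnajc15 and Dnajc28) did not pass in any comparison.

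**Figure D5:**
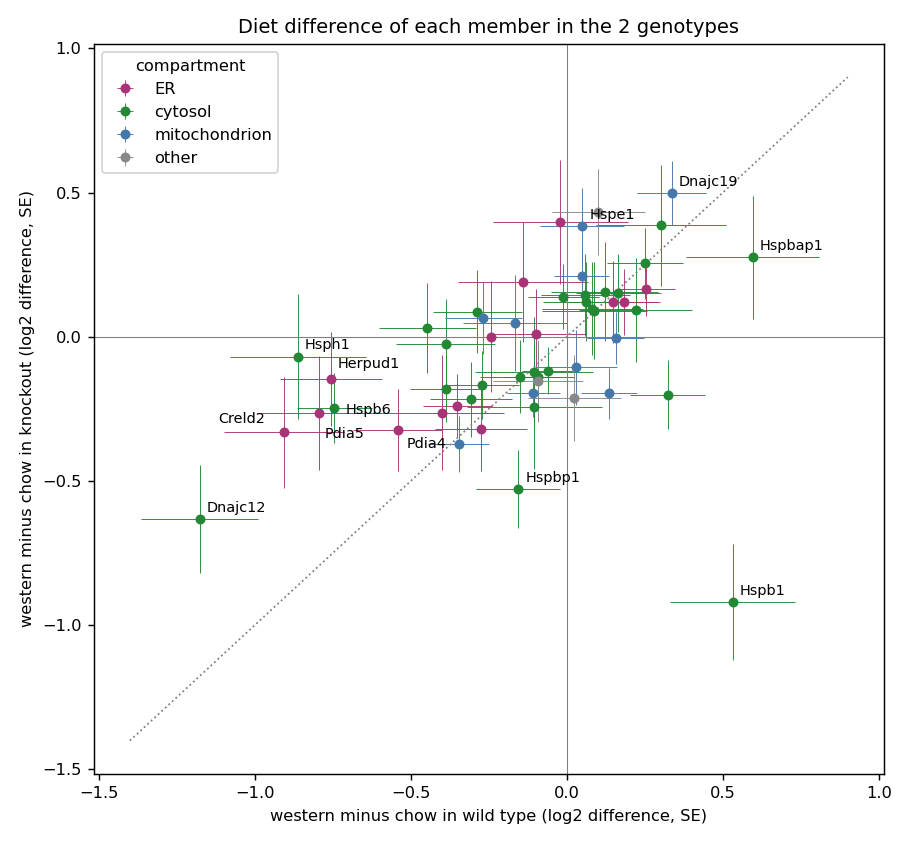
Log2 difference of each of the 55 genes for western diet against chow in wild type (x axis) and in knockout (y axis), with SE bars and colour by compartment. The dotted line marks equal differences. Hspb1 lies at 0.53 in wild type and -0.92 in knockout, and Dnajc12 lies at -1.18 and -0.63.

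Between genotypes on chow, Herpud1 and Dnajc30 were the 2 of 55 genes called, and neither call was made with the authors' processed values or with the replicate block. Nr0b2 lies on chromosome 4, and the 3 tested members on that chromosome, Dnajc8, Dnajc16 and Dnajc11, with 15, 74 and 114 tested genes between them and Nr0b2, were not called in any comparison, except Dnajc16 with median scaling for diet in wild type. The 18 genes left out for low signal included Canx, the membrane-bound lectin chaperone, whose probe was detected in 0 arrays, and Dnaja1, the main cytosolic J-domain partner of HSP70, in 3 arrays.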

How the data were processed

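Liver RNA of 16 mice was measured on 1-colour Illumina arrays. Per the file headers, the deposited values are a raw signal intensity for each probe, not normalized, with a detection p-value that BeadStudio computed (version not given), per the submitters' processing notes. The authors also deposited processed intensity values, floored here at 16 and used as an alternative. Each array's processed values matched its own raw column (Spearman's rho at least 0.999993, any other array at most 0.913), and 0 arrays were identical.

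Raw signals were normalized with neqc of limma 3.58.1 (R 4.3.3; background from negative controls inferred from the detection p, offset 16, quantile, log2). Probes with a detection p under 0.05 on 4 or more arrays were kept (13196 of 25697), and 23978 probes carried 1 symbol in the platform annotation and 1719 none. The probe with the highest mean stood for a gene, which gave 9095 genes. All 16 arrays entered one limma model of the 4 group means (lmFit, eBayes with trend, 12 residual degrees of freedom), with two-sided tests adjusted by Benjamini-Hochberg over all genes and called below 0.05. A gene missing the detection limit in all 4 arrays of a group is at background there, and its fold is a bound. The fit was tested on simulated arrays: of 100 genes changed by 0.5 on the log2 scale 45 were recovered for western diet in wild type, and of 100 changed by 1, 95. Only these genes of 9095 were changed, where 2693 were called in the data. The 2 counts therefore do not give the share of real changes found in that comparison. The number of arrays limits the precision.

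Genes, compartments and lists were chosen with earlier results of these data known, so counts over them carry no test. Named were core chaperones, the members called, and the listed genes with the smallest adjusted p, at most 3 each way, with key regulators. Genes outside that rule, such as those gained by another setting or with a disagreeing probe, were added after their values were seen. Replicate numbers in the titles only number the mice: residuals of same-numbered arrays correlated between -0.166 and 0.186, so numbers were not used as pairs. Alternatives were quantile normalization without background correction, normexp without negative controls (offset 50), median scaling, the authors' values, no or a stricter detection filter, the mean of a gene's probes, only the 8 arrays compared, a robust prior, array weights, the replicate block and each array left out. Slides are not given, so slide was no term. Promoters came from RefSeq (GRCm38.p6). A planned search of protein ends was not run. Python 3.11.15 and matplotlib 3.10.9 made the figures.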

Additional observations from a re-analysis of the deposited data

Results flagged for a closer look

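Of 124 gene and group sets of 4 mice (31 genes in 4 groups), 5 held a mouse far from the other 3, and chance flags about 5% of such sets. Calr, the ER lectin chaperone, was at 8.57 in knockout western mouse 3, where the others lay at 7.74 and below. Dnaja4 was at 5.79 in knockout chow mouse 2, with the next at 5.51. Dnajb2 was at 8.68 in knockout western mouse 1, with the next at 8.46. Dnajc12 was at 6.65 in wild type chow mouse 1, below the next at 6.93. Hspb1 was at 7.56 in knockout western mouse 4, below the next at 7.91. The diet difference of Hspb1 differed between genotypes, with an interaction of -1.45 ± 0.28 on the log2 scale (limma, adjusted p = 0.00433).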

How the results depend on the processing

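Among the core and called genes, no difference that passed in the reported or the refitted fit changed direction. Changes of direction in values that passed in neither fit were not counted. With diet in wild type 63 of 783 values of 29 such genes lost a call and 10, all of Hspb1, gained one. With diet in knockout 24 of 621 values of 23 genes lost one. Between genotypes 21 of 540 values of 20 genes lost one on chow, and 21 of 675 of 25 genes on western diet. These totals include core genes not called in the reported fit, which had no call to lose. All losses fell on the 15, 5, 2 and 8 genes called there, in the same order. Members outside this tally, such as Hspa2, Hspa4 and Dnajc16, gained a call with median scaling. With median scaling, cytosolic medians became -0.0675 (knockout on chow), -0.12 (knockout on western diet), 0.13 (diet in wild type), 0.0320 (diet in knockout) and -0.15 (interaction), and ER medians -0.13 (knockout on western diet) and 0.0702 (diet in knockout), while calls went to 1 (knockout on chow) and 2 (diet in knockout, 1 of them cytosolic). Of all 9095 genes median scaling called 21 higher and 39 lower in knockout on chow, and 297 and 50 with diet in knockout. On chow 0 of the 55 were called with the authors' values (25 of all genes higher and 23 lower) and 0 with the replicate block (36 and 34). There was 1 call with no detection filter (35 and 35 of 16593) and 1 with only the arrays compared (60 and 48 of 9095). ER genes had 0 calls in each of these 4. In the reported fit 10 of the 55 had an unadjusted p below 0.05 (limma). Cytosolic medians were 0.13 (knockout on western diet) and 0.0828 (interaction) with the stricter filter, and 0.0873 (interaction) with the authors' values. For diet in wild type they were -0.0368 without background correction and -0.0344 by normexp without negative controls. No detection filter left 4 cytosolic calls for that comparison, where 1289 of 16593 genes rose and 1027 fell. Leaving out each array in turn gave on chow 0 to 2 calls (ER 0 to 1) and cytosolic medians of -0.0523 to 0.0156. Of all 9095 genes 24 to 61 were higher there and 25 to 47 lower. On western diet cytosolic medians were 0.0348 to 0.110. For diet in wild type they were -0.0827 to -0.0139, with 4 to 8 cytosolic calls (4 without wild type chow mouse 1 or 2). ER calls were 4 to 6 and ER medians -0.32 to -0.20. Of all 9095 genes 1203 to 1434 rose there and 1038 to 1338 fell. For diet in knockout there were 3 to 5 calls, cytosolic 1 to 3, with medians of -0.0791 to 0.0178. Of all 9095 genes 204 to 441 rose there and 155 to 301 fell. For the interaction there were 1 to 2 calls, ER 0 to 1, cytosolic 1 to 2, with medians of -0.00754 to 0.0775. Of all 9095 genes 142 to 223 lay above 0 there and 316 to 491 below. Where no cause is given, it was not tested. The labels do not say that replicate numbers pair mice. Residuals of 7 of 16 arrays correlated best, among arrays of other groups, with an array of their own number. That count was not set against chance, so it does not decide whether the numbers pair mice. Probes near background and 4 mice per group limit what could pass.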

Other observations

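Between genotypes on western diet, heat shock factor and co-chaperone genes gave 3 higher and 1 lower of 17 in knockout, where 8.82% of all genes were higher and 11% lower. With median scaling 0 were higher and 1 lower, where 208 of 9095 genes were higher and 1691 lower. Hsf2, a heat shock factor active in development, was higher by 0.48 ± 0.15 on the log2 scale (limma, adjusted p = 0.0277), Bag4, a nucleotide exchange factor of HSP70, by 0.42 ± 0.13 (adjusted p = 0.0307) and Ptges3, the HSP90 co-chaperone p23, by 0.31 ± 0.09 (adjusted p = 0.0242). Unc45a, an HSP90-bound myosin chaperone, was lower (-0.35 ± 0.08, adjusted p = 0.00535) under both scalings. Of the CCT and prefoldin genes Pfdn2, a prefoldin subunit, was higher (0.61 ± 0.14, adjusted p = 0.00363), a call that was not made with median scaling. Without knockout western mouse 3 Xbp1 was lower in knockout on western diet (-0.41, adjusted p = 0.0109), and without knockout western mouse 2 Hsph1 was higher (0.63, adjusted p = 0.0407). Neither passed with all 16 arrays.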
